A study of Mus musculus with 24 samples.

Results

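The *Ifitm* genes code for small membrane proteins of the CD225 family that sit in the plasma membrane or in endosomes and hinder the fusion of enveloped viruses with the membranes of the cell. *Ifitm1*, *Ifitm2* and *Ifitm3* are known as targets of interferons, and stem and progenitor cells can express such genes without added interferon. A total of 5 members were taken by their symbols from the 55487 genes listed in both experiments: *Ifitm1*, *Ifitm2*, *Ifitm3*, *Ifitm6* and *Ifitm10*. The family was selected on measured values, with earlier results of these data known, above all on the change of *Ifitm3* with sgCbfb in LPs and in Phase 1 cells and on its rise with sgCbfb in the second experiment. The values of *Ifitm3* in comparisons that involve sgCbfb or Notch, and those of all members for sgCbfb against sgControl in experiment 1, are therefore described without a test.

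The cells were Cas9-LPs, lymphoid progenitor lines grown from fetal liver of *Ebf1*-deficient mice with a Cas9 knock-in at Rosa26, kept on OP9 stromal cells treated with mitomycin C and with SCF, Flt3L and IL-7. A retrovirus carried guides against luciferase (sgControl), *Cbfb*, *Ctcf* or *Med12* together with hNGFR, and cells positive for hNGFR and CD45 were sorted 5 days later, so each guide group is a sorted pool in which the share of edited alleles was not measured here. Experiment 1 holds LPs (on OP9) and Phase 1 cells (2 days of Notch stimulation on OP9-DLL4) with sgControl or sgCbfb, and experiment 2 holds LPs with sgControl, sgCbfb, sgCTCF or sgMed12. Each of the 8 groups has 3 libraries of QuantSeq, which counts reads at the 3′ ends of mRNAs. The methods of the study call the replicates biologically independent and the labels only number them, and neither says whether each came from a culture of its own, so P values measure the spread between these libraries.

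Levels are CPM, the read share of a gene among the reads on genes of its library, scaled to the same total in every library. Libraries of experiment 1 held 1363263 to 1743319 reads (median 1553496) and those of experiment 2 held 3354483 to 4326782 (median 3658892). A count of 0 thus allows up to 1.72 to 2.20 CPM in experiment 1 and 0.693 to 0.894 CPM in experiment 2, at 3 reads a library. These limits cover counting error only. A gene was called where limma gave an adjusted P value below 0.05, the group means differed by over 1 on the log2 scale and either mean passed 10 CPM. Log2 fold changes are on the log2(CPM + 1) scale, which makes the changes of low genes look smaller. Of the 5 members, 4 passed the filter on low values in each experiment and *Ifitm10* did not in either.

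Of the members, 4 lie together on mm10 chromosome 7, within 63.1 kb from 140954837 to 141017924. *Ifitm2* (ENSMUSG00000060591) occupies 140954837 to 140955987 on the minus strand and *Ifitm1* (ENSMUSG00000025491) 140967221 to 140969825 on the plus strand. *Ifitm3* (ENSMUSG00000025492) occupies 141009586 to 141010770 and *Ifitm6* (ENSMUSG00000059108) 141015699 to 141017924, both on the minus strand. *Ifitm1* is thus the only one of these 4 members that is read from the plus strand. *Ifitm10* (ENSMUSG00000045777), at 142325837 to 142373753, is 1363.0 kb from *Ifitm3*.

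**Figure D1:**
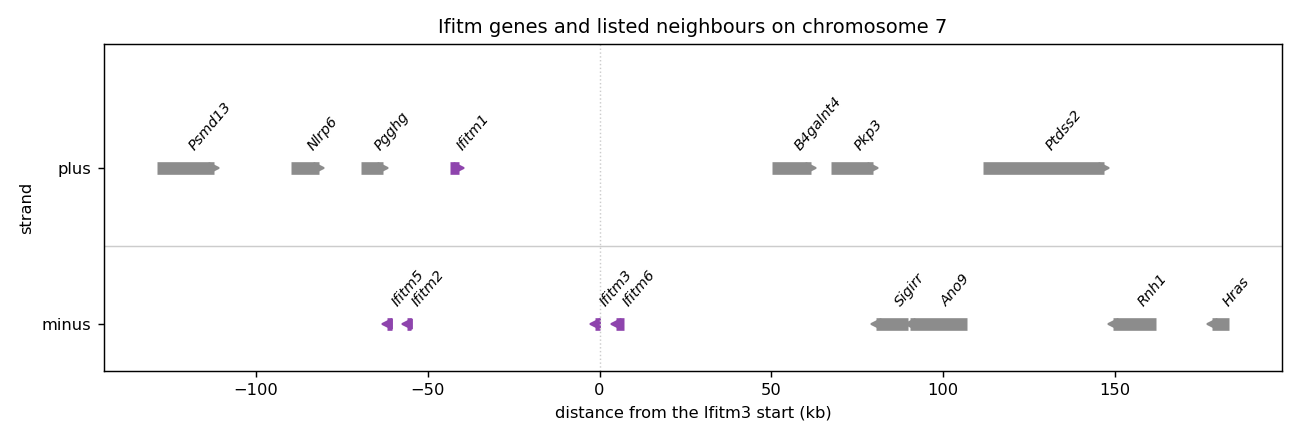
Map of the *Ifitm* genes (purple) and the listed neighbours (grey) on chromosome 7, with the distance from the *Ifitm3* start in kb on the x axis and the strand on the y axis. *Ifitm1* stands alone among the mapped *Ifitm* genes on the plus strand, 43.5 kb from *Ifitm3*, and *B4galnt4* begins 50.3 kb away on the other side.

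The members are similar in sequence, so reads could be shared between copies. No stretch of 75 bases, the read length, was common to 2 members. The longest identical run was 69 bases between *Ifitm2* and *Ifitm3* (26 bases within their last 300 bases, where QuantSeq reads start) and 64 bases between *Ifitm1* and *Ifitm3* (18 bases within the last 300). *Ifitm2* shared 44 of the 226 stretches of its last 300 bases with the pseudogenes *Gm11951*, *Gm2840*, *Gm45308* and *Gm8865*, and 268 bases of its exons with *Gm45717* on the same strand. *Ifitm10* shared 96 of the 1150 stretches in the last 300 bases of its transcripts with *Gm49369*, and 215 bases of its exons on the same strand. These genes had 0 reads in all 24 libraries. How the authors' counting treated reads that match several places is not given in the sources used here. The level of *Ifitm2* is thus the least certain of the 4 clustered members, and that of *Ifitm10* is uncertain for the same reason. No exon of a member overlapped a gene on the opposite strand.

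The starts of the 4 clustered members are shown because these 4 had their highest level of experiment 1 in the same group, as described further on. RefSeq windows on GRCm38.p6 from 250 bases before to 50 after the start were found for 5 of 5 members, and 5 motifs were sought on both strands. Capitals mark the matches: GAAANNGAA of the interferon response element (in 8.56% of 32851 windows of this length), TTCNNNGAA of the gamma-activated site (8.3%), TGTGGT (16.8%) and TGCGGT (6.45%) of RUNX factors and TGGGAA of RBPJ (25.6%). The windows run 5′ to 3′ on the strand of the gene, at chr7:141010695-141010994 (minus) for *Ifitm3*, chr7:140955912-140956211 (minus) for *Ifitm2*, chr7:140967826-140968125 (plus) for *Ifitm1* and chr7:141016843-141017142 (minus) for *Ifitm6*. For all 4 the RefSeq start lies inside the span given above.
Ifitm3: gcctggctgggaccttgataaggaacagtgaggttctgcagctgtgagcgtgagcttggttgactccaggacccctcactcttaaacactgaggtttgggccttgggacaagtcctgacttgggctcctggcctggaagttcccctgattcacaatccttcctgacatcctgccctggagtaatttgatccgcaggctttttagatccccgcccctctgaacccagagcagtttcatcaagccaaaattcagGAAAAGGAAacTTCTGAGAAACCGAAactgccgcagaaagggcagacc
Ifitm2: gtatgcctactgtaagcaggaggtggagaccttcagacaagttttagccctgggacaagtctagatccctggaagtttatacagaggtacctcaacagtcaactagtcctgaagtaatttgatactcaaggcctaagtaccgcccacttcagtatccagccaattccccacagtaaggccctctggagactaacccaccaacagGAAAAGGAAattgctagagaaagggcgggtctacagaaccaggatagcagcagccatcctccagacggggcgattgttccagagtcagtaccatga
Ifitm1: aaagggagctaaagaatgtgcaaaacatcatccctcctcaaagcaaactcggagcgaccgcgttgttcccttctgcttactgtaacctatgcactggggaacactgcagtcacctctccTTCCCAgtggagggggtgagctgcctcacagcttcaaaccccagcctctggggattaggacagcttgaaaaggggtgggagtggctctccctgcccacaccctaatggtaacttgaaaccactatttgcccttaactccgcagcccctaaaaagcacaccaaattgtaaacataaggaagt
Ifitm6: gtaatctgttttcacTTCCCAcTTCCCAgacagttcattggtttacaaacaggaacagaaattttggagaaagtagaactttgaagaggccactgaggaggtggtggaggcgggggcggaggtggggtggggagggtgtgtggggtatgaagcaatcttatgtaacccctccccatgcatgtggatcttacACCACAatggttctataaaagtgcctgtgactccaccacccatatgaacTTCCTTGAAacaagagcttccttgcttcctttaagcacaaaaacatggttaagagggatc

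Counted with the first transcribed base as 1, *Ifitm3* held GAAANNGAA at 3 and 20 and TTCNNNGAA at 14, the latter overlapping the match at 20. *Ifitm2* held GAAANNGAA at -46. The window of *Ifitm1* held neither interferon motif and 1 TGGGAA at -131 on the opposite strand. *Ifitm6* held TTCNNNGAA at -10, TGTGGT at -59 and TGGGAA at -235 and -228, the last 3 on the opposite strand. None of the 5 motifs was in the 3 windows of *Ifitm10*. Such matches describe letters and are not evidence of binding.

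The targeted genes were examined first as a check of the labels, although a 3′ read lies outside the cut site and an edited gene can still be transcribed. *Cbfb* was 86.5 ± 9.30 CPM with sgControl and 40.2 ± 5.18 with sgCbfb in LPs of experiment 1 (SD, n = 3; limma, adjusted P = 0.0055) and 114.3 ± 8.37 and 48.4 ± 6.93 CPM in experiment 2 (adjusted P = 4.3e-06). In Phase 1 cells it was 66.5 ± 19.2 and 53.9 ± 9.69 CPM (adjusted P = 0.59), so *Cbfb* mRNA does not check the label of these cells, and the protein was not measured here. *Ctcf* was 391.0 ± 30.7 CPM with sgControl and 305.7 ± 30.0 with sgCTCF (adjusted P = 0.021, not called because of its size), and *Med12* was 5.14 ± 1.26 and 7.01 ± 3.38 CPM with sgControl and sgMed12 (adjusted P = 0.66). Of 12 Notch and T-lineage genes, 9 were called higher in Phase 1 than in LP cells with sgControl (median log2 fold change 3.17, against -0.07 for all genes tested), among them *Il2ra*, which codes for CD25, from 2.61 ± 2.04 to 371.3 ± 33.8 CPM, and the Notch targets *Dtx1* and *Hes1*. With sgCbfb 5 of 12 were called higher by limma and 6 by edgeR (median 1.41, against -0.01). For sgCbfb against sgControl 6 of 12 were lower in Phase 1 cells (median -1.68), and in LPs 1 was higher (*Il2ra*) and 1 lower (*Bcl11b*) in experiment 1 (median 0.23) and 1 higher and 2 lower of 9 in experiment 2 (median -0.39). Of these 9, sgCTCF had *Tcf7* and *Hes1* higher (median 0.60) and sgMed12 *Hes1* (median 0.37), against sgCbfb 4 were higher and 1 lower with sgCTCF (median 1.08) and 3 higher and 1 lower with sgMed12 (median 0.88), and *Tcf7* was lower with sgMed12 than with sgCTCF (median -0.26).

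*Ifitm1*, a member found at the plasma membrane, was the most abundant. In experiment 1 its libraries were at 629.2, 658.2 and 572.3 CPM in sgControl LPs and at 1612, 1483 and 1802 CPM in sgControl Phase 1 cells. With sgCbfb they were at 646.1, 620.1 and 538.8 CPM in LPs and at 564.1, 498.3 and 486.8 CPM in Phase 1 cells. The 3 Phase 1 sgControl libraries lay above the other 9, which overlapped between neighbouring groups. In experiment 2 the values were 548.0, 614.3 and 448.1 CPM with sgControl, 375.0, 375.4 and 281.1 with sgCbfb, 513.1, 558.9 and 510.1 with sgCTCF and 405.8, 615.2 and 428.3 with sgMed12. The sgCbfb libraries were the lowest 3 of the experiment, and the sgControl, sgCTCF and sgMed12 libraries overlapped.

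*Ifitm2*, which acts on viruses that enter through endosomes, was at 37.8, 54.5 and 49.5 CPM in sgControl LPs and at 216.0, 225.8 and 333.8 CPM in sgControl Phase 1 cells. With sgCbfb it was at 91.0, 74.0 and 81.4 CPM in LPs and at 107.0, 101.8 and 101.4 CPM in Phase 1 cells. None of these 4 groups overlapped with another, from LP sgControl at the bottom through LP sgCbfb and Phase 1 sgCbfb to Phase 1 sgControl. In experiment 2 *Ifitm2* was at 46.4, 50.2 and 43.3 CPM with sgControl, 80.2, 88.0 and 72.0 with sgCbfb, 31.4, 39.0 and 35.1 with sgCTCF and 50.9, 56.7 and 47.4 with sgMed12. Here sgCbfb was the highest and sgCTCF the lowest group, and sgMed12 overlapped with sgControl.

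*Ifitm3*, the endosomal member best known for blocking influenza virus, was low in sgControl LPs, with 5, 5 and 3 reads or 2.95, 3.10 and 1.93 CPM, and at 42.4, 38.1 and 43.3 CPM in sgControl Phase 1 cells. With sgCbfb it was at 18.3, 10.9 and 9.28 CPM in LPs and at 8.43, 16.3 and 11.8 CPM in Phase 1 cells. The sgCbfb groups overlapped with each other and lay between the sgControl groups. In experiment 2 its values were 7.38, 2.95 and 5.84 CPM with sgControl and 123.4, 51.2 and 24.2 CPM with sgCbfb. They were 12.3, 14.2 and 9.71 CPM with sgCTCF and 1.70, 4.07 and 5.96 CPM with sgMed12. The sgCbfb libraries were spread more widely than those of any other group of *Ifitm3*, yet each was above all libraries of the other groups of that experiment.

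*Ifitm6*, which is known mainly from macrophages, had 7, 12 and 10 reads (4.94, 7.74 and 7.34 CPM) in the sgControl Phase 1 libraries, 1 read in one LP sgCbfb library and 0 in the other 8 libraries of experiment 1. In experiment 2 it had 12, 5 and 6 reads with sgCTCF, 1, 6 and 1 with sgMed12, 5 in all with sgCbfb and 1 in all with sgControl. It passed the filter of experiment 1 only through the Phase 1 sgControl libraries, so it had to differ there. In experiment 2 it reached 1 CPM in the 3 sgCTCF libraries and in 1 library each of sgMed12 and sgCbfb, and would not have passed without the sgCTCF group. Its values are therefore described without a test. *Ifitm10*, whose role is little known, had 6 reads in the Phase 1 sgCbfb group and 4 or fewer in each of the other groups. Levels of both in most groups were under what these depths can show.

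**Figure D2:**
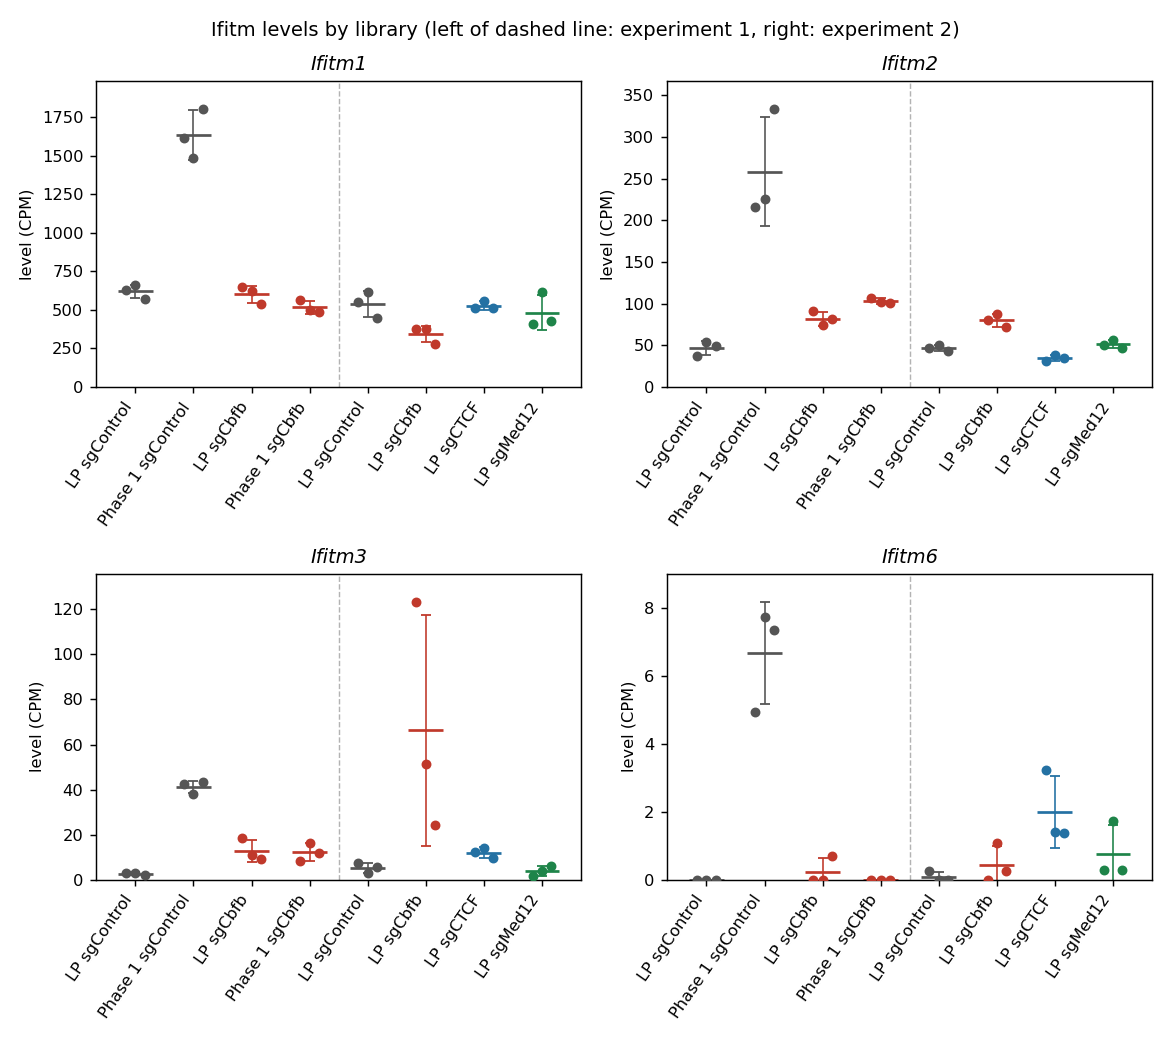
Levels of *Ifitm1*, *Ifitm2*, *Ifitm3* and *Ifitm6* in CPM (y axis, linear, a scale for each gene) in the 8 groups (x axis), with experiment 1 left and experiment 2 right of the dashed line. Points are libraries, wide bars are means and whiskers are the SD of 3 libraries. Phase 1 sgControl libraries are the highest of experiment 1 for all 4 genes, and *Ifitm3* in sgCbfb LPs of experiment 2 spreads from 24.2 to 123.4 CPM.

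Per kb of transcript, the order *Ifitm1*, *Ifitm2*, *Ifitm3*, *Ifitm6* held for the mean levels of all 8 groups. In sgControl LPs of experiment 1 the levels were 566.6, 72.1 and 3.92 CPM per kb for the first 3, and in sgControl Phase 1 cells 1492, 394.7 and 60.8 CPM per kb. A 3′ method reads each mRNA near its end, so CPM need no division by length, and values per kb distort the ratios between members. Undivided, the means of the first 3 in sgControl LPs of experiment 1 were 619.9, 47.2 and 2.66 CPM, in the same order. The 5 members together summed to 669.8 ± 46.1 CPM in sgControl LPs, 1939 ± 223 in sgControl Phase 1 cells, 696.8 ± 63.0 in sgCbfb LPs and 633.2 ± 43.0 in sgCbfb Phase 1 cells (SD, n = 3). In experiment 2 the sums were 589.1 ± 86.1 CPM with sgControl, 490.7 ± 103 with sgCbfb, 576.9 ± 31.7 with sgCTCF and 539.4 ± 120 with sgMed12. In that experiment *Ifitm1* made up 91.1% of the family's reads with sgControl and 70.4% with sgCbfb, while *Ifitm3* made up 0.941% and 13.1%. The *Ifitm3* share was 21.3%, 9.93% and 6.40% in the single sgCbfb libraries, and 8.38% in the group without replicate 1, a setting chosen after seeing the data.

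**Figure D3:**
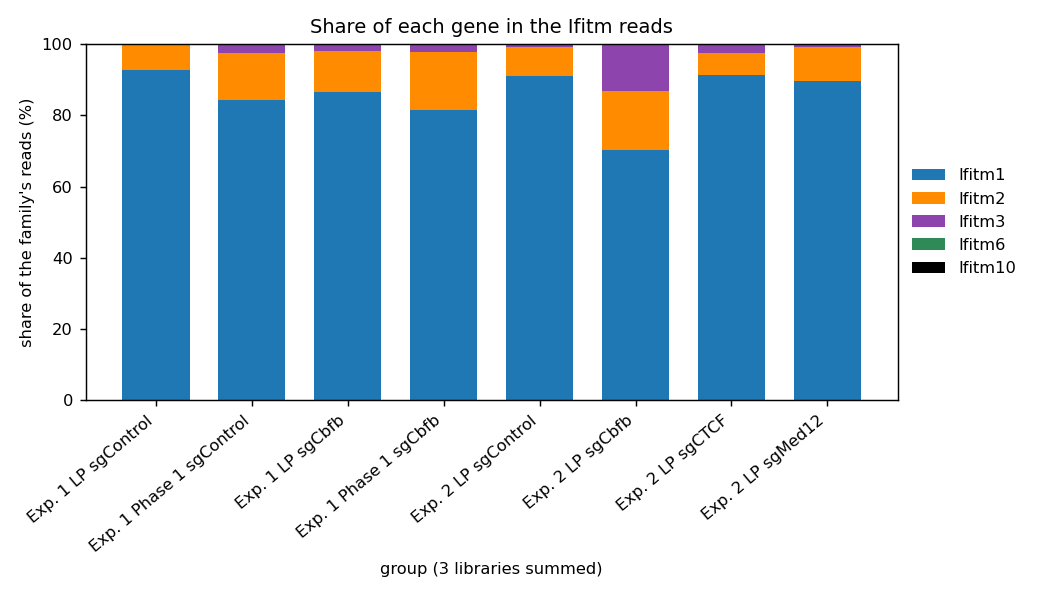
Share of each member in the reads of the family (y axis, percent) in the 8 groups (x axis), the reads of 3 libraries summed, with one colour for each gene. *Ifitm1* takes most reads in each group, between 70.4% and 92.6%, and the *Ifitm3* share is widest in sgCbfb LPs of experiment 2, at 13.1% (8.38% without replicate 1). *Ifitm6* and *Ifitm10* are too thin to see.

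Notch stimulation of sgControl cells was compared first, as the step that starts the T-lineage program. Both abundant members rose. *Ifitm1* was 2.63-fold higher in Phase 1 than in LP cells, 1633 ± 161 against 619.9 ± 43.7 CPM (SD, n = 3), with a log2 fold change of 1.39 (standard error 0.11, limma adjusted P = 1.2e-08). *Ifitm2* was 5.47-fold higher, 258.5 ± 65.3 against 47.2 ± 8.57 CPM, with a log2 fold change of 2.42 (standard error 0.18, adjusted P = 5.9e-09). *Ifitm3*, described without a test, was 15.5-fold higher. *Ifitm6*, also described, had 29 reads against 0 and was at least 3.60-fold higher, taken against the floor of 3 reads per library. *Ifitm1* and *Ifitm2* were both called higher, against 1.65% of 13239 genes called higher and 1.74% called lower. The libraries compared here also enter the sgCbfb contrasts that led to the choice of the family. The P values of *Ifitm1* and *Ifitm2* are therefore not free of that choice and may be too small. In bulk libraries more cells with a transcript and more RNA per cell cannot be told apart.

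In sgCbfb cells the same step moved no tested member past the thresholds. *Ifitm1* was 516.4 ± 41.7 CPM in Phase 1 and 601.7 ± 56.0 CPM in LP cells, a log2 fold change of -0.22 (95% interval -0.45 to 0.01, limma adjusted P = 0.44). *Ifitm2* was 103.4 ± 3.13 and 82.1 ± 8.52 CPM, a log2 fold change of 0.33 (95% interval -0.04 to 0.71, adjusted P = 0.50). The difference between the Notch step with sgControl and that with sgCbfb was not tested, as it rests on contrasts that led to the choice of the family. The P values given here use libraries of those contrasts too. *Ifitm3* was 12.2 ± 3.97 and 12.8 ± 4.83 CPM, with overlapping libraries. *Ifitm6* was at or under the floor in both groups. By limma 0 of *Ifitm1* and *Ifitm2* were called, with 0 at an unadjusted P value under 0.05 and 0 by edgeR, where 0.740% of all genes were called higher and 0.453% lower.

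The effect of sgCbfb at each stage of experiment 1 follows as a description. In LPs *Ifitm3* was 4.83-fold and *Ifitm2* 1.74-fold higher with sgCbfb, without overlap between libraries, while *Ifitm1* was 1.03-fold lower with overlapping libraries. In Phase 1 cells all 3 were lower with sgCbfb and no libraries overlapped: *Ifitm3* 3.38-fold, *Ifitm1* 3.16-fold and *Ifitm2* 2.50-fold. *Ifitm6* was at least 3.58-fold lower there, with 0 reads in the sgCbfb group. For *Ifitm2* and *Ifitm3* the sgCbfb libraries thus lay above sgControl at one stage and below it at the other. Over all genes 1.10% were called higher and 0.597% lower in LPs, and 1.96% and 1.56% in Phase 1 cells, with nothing read from these shares for the members.

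In experiment 2 guides against *Cbfb* were measured again in LPs, where *Ifitm1* was lower and *Ifitm2* higher than with sgControl. *Ifitm1* was 1.56-fold lower, 343.9 ± 54.3 against 536.8 ± 83.7 CPM (SD, n = 3), a log2 fold change of -0.64 (standard error 0.14, limma adjusted P = 0.0019). *Ifitm2* was 1.72-fold higher, 80.1 ± 7.95 against 46.7 ± 3.44 CPM, a log2 fold change of 0.76 (standard error 0.14, adjusted P = 0.00025). Both were under the fold asked of a call. *Ifitm3*, described without a test, was 66.3 ± 51.3 CPM with sgCbfb and 5.39 ± 2.25 CPM with sgControl, 12.3-fold higher. Its log2 fold change was 3.16, and 2.57 without sgCbfb replicate 1, the library at 123.4 CPM. In LPs of experiment 1 *Ifitm2* differed 1.74-fold in the same direction, given there without a test, and *Ifitm1* had overlapping libraries. By limma 0 of *Ifitm1* and *Ifitm2* were called, with both at an unadjusted P value under 0.05 and 0 by edgeR, against 2.67% of 13177 genes called higher and 1.65% lower.

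Guides against *Ctcf*, which codes for a factor that shapes chromatin loops, left *Ifitm1* at 527.3 ± 27.3 CPM (log2 fold change -0.01, 95% interval -0.30 to 0.27, limma adjusted P = 0.97). *Ifitm2* was 35.2 ± 3.79 CPM, below each sgControl library, with a log2 fold change of -0.40 (95% interval -0.68 to -0.12, adjusted P = 0.065). *Ifitm3* was 12.1 ± 2.26 CPM, above each sgControl library and 2.24-fold higher in the mean, with a log2 fold change of 1.09 (95% interval 0.24 to 1.93, adjusted P = 0.097). The spread in this fit comes from all groups of the experiment, including the widely spread sgCbfb libraries of *Ifitm3*. The adjusted P value of 0.097 thus does not measure the spread of the sgCTCF and sgControl libraries alone. With only these 2 groups in the fit *Ifitm3* was called (adjusted P = 0.0082), and its adjusted P value ranged from 0.0082 to 0.34 over all alternatives. *Ifitm6*, described without a test, had 23 reads against 1, with 12, 5 and 6 reads in the sgCTCF libraries. *Ifitm2* and *Ifitm3* thus lay on opposite sides of sgControl, neither past the thresholds. By limma 0 of *Ifitm1*, *Ifitm2* and *Ifitm3* were called, with *Ifitm2* and *Ifitm3* at an unadjusted P value under 0.05 and 0 by edgeR, against 1.81% of all genes called higher and 0.622% lower.

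With guides against *Med12*, a subunit of the Mediator complex, libraries of *Ifitm1*, *Ifitm2* and *Ifitm3* overlapped with those of sgControl. *Ifitm1* was 483.1 ± 115 CPM (log2 fold change -0.17, 95% interval -0.45 to 0.12, limma adjusted P = 0.51) and *Ifitm2* 51.6 ± 4.68 CPM (0.14, -0.14 to 0.43, adjusted P = 0.58). For *Ifitm1* the adjusted P value ranged from 0.023 to 0.89 over all alternatives, with log2 fold changes of -0.35 to -0.05 and no call. *Ifitm3* was 3.91 ± 2.14 CPM (-0.42, 95% interval -1.26 to 0.43, adjusted P = 0.58), again with the sgCbfb libraries in the spread. *Ifitm6* was at or under the floor in both groups. By limma 0 of *Ifitm1*, *Ifitm2* and *Ifitm3* were called, with 0 at an unadjusted P value under 0.05 and 0 by edgeR, against 0.668% of all genes called higher and 0.364% lower. These shares moved with single libraries left out: 136 genes were called in all, 88 higher and 48 lower. Without sgControl replicate 2 there were 66 (35 higher and 31 lower). Without sgMed12 replicates 1, 2 and 3 there were 61 (24 and 37), 358 (243 and 115) and 54 (22 and 32). More were also lower than higher without the filter on low values (24 higher and 30 lower). The same held with only these 2 groups in the fit (27 and 30) and without the fold threshold (221 and 601). In the remaining alternatives more were higher than lower.

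The guide groups were then compared with each other to place the levels in order. Against sgCbfb, *Ifitm2* was called lower with sgCTCF, 2.28-fold (log2 fold change -1.16, limma adjusted P = 4.3e-07), and was 1.55-fold lower with sgMed12 (-0.62, adjusted P = 0.0021, not called). *Ifitm1* was 1.53-fold higher with sgCTCF (0.63, adjusted P = 0.0014) and 1.40-fold higher with sgMed12 (0.48, adjusted P = 0.018), and neither was called. *Ifitm6*, described, had 23 reads with sgCTCF against 5 with sgCbfb. *Ifitm3*, described, was 5.48-fold lower with sgCTCF (log2 fold change -2.08, and -1.49 without sgCbfb replicate 1) and 17.0-fold lower with sgMed12 (-3.58, and -2.99 without that library). These comparisons share the sgCbfb libraries, as those before share the sgControl libraries. For sgCTCF, of *Ifitm1* and *Ifitm2*, 1 was called lower, against 3.48% of all genes called higher and 3.38% lower. For sgMed12 0 of them were by limma, with both at an unadjusted P value under 0.05 and 0 by edgeR, against 1.76% and 2.72%.

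Between sgMed12 and sgCTCF, *Ifitm3* was called lower with sgMed12, 3.09-fold, 3.91 ± 2.14 against 12.1 ± 2.26 CPM (log2 fold change -1.50, standard error 0.41, limma adjusted P = 0.011). All 3 sgMed12 libraries lay under all 3 sgCTCF libraries. The standard error and P value of *Ifitm3* here also rest on a spread that includes the sgCbfb libraries. The call was lost without sgMed12 replicate 1 (adjusted P = 0.062), without sgCTCF replicate 2 (0.053) and without the filter on low values (0.055), with a range of 0.0048 to 0.062 over all alternatives. *Ifitm2* went the other way, 1.47-fold higher with sgMed12 (0.54, adjusted P = 0.0067, not called), while *Ifitm1* had overlapping libraries (-0.15, adjusted P = 0.48), as had *Ifitm6*, described without a test. Of *Ifitm1*, *Ifitm2* and *Ifitm3*, 1 was called lower, against 1.71% of all genes called higher and 2.31% lower.

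**Figure D4:**
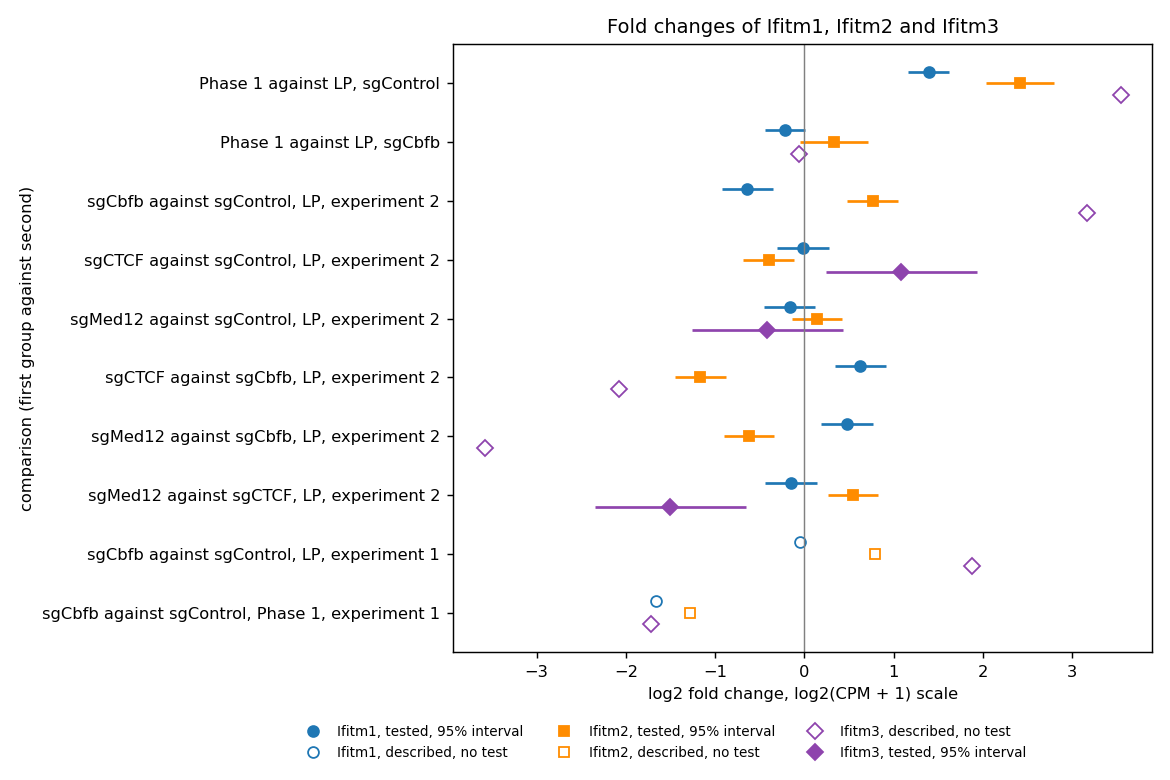
Log2 fold changes on the log2(CPM + 1) scale (x axis) of *Ifitm1*, *Ifitm2* and *Ifitm3* in 10 comparisons (y axis), the first group against the second. Filled symbols with 95% intervals were tested with limma and open symbols are described without a test. All 3 genes lie to the right for Phase 1 against LP with sgControl, and *Ifitm3* lies farthest to the right for sgCbfb against sgControl in LPs of experiment 2 among the comparisons of that experiment.

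In the order of levels within experiment 1, neighbours overlapped for *Ifitm1* in the 3 lower groups and for *Ifitm3* between the sgCbfb groups, and no neighbours overlapped for *Ifitm2*. In experiment 2 the order of *Ifitm1* was sgControl, sgCTCF, sgMed12 and sgCbfb, the first 3 overlapping. For *Ifitm2* it was sgCbfb, sgMed12, sgControl and sgCTCF, and for *Ifitm3* sgCbfb, sgCTCF, sgControl and sgMed12. In both, sgMed12 overlapped with sgControl. The sgCbfb group was thus the lowest for *Ifitm1* and the highest for *Ifitm2* and *Ifitm3*.

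Interferons induce a wide set of genes of which the *Ifitm* genes are a part, and 42 such genes were listed without the members. In LPs of experiment 2, 28 of 39 tested were called higher with sgCbfb and 0 lower, with a median log2 fold change of 2.36 against -0.01 for all genes. *Oas2*, a sensor of double-stranded RNA, was 44.0 ± 25.3 CPM against 0.0983 ± 0.170 CPM, *Usp18*, a brake on interferon signalling, 34.5 ± 25.4 CPM against 0 reads, and *Rtp4* 124.1 ± 52.0 against 3.63 ± 1.67 CPM. *Usp18* was at 0.478 ± 0.603 CPM with sgCTCF and 0.571 ± 0.009 CPM with sgMed12, so it would not have passed the filter without the sgCbfb group. Genes that passed only in this way had to be higher with sgCbfb, and how many of the listed genes did so was not counted. The listed genes summed to 3270, 2192 and 1564 CPM in the sgCbfb libraries and to 823.9, 794.4 and 750.7 CPM in the sgControl libraries. The sgCbfb library with the highest sum also had the most *Ifitm3* (123.4 CPM) and the one with the lowest sum the least (24.2 CPM). *Ifitm1* in the same libraries was 375.0, 375.4 and 281.1 CPM and *Ifitm2* 80.2, 88.0 and 72.0 CPM, a narrower spread than that of *Ifitm3*. The reads per library, 3354483, 3729180 and 3969498, were lowest where the sum was highest, and the part of depth was not tested.

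In comparisons without the sgCbfb libraries of experiment 2, few of these genes were called, but more were at an unadjusted P value under 0.05 in limma. These were 18 of 37 at the Notch step with sgControl (31 genes above 0 and 6 below). For sgCbfb in LPs of experiment 1 they were 14 of 37 (33 above and 4 below). They were 3 of 37 at the Notch step with sgCbfb (10 above and 27 below). For sgCTCF, sgMed12 and sgMed12 against sgCTCF they were 9, 10 and 13 of 39 (29, 30 and 17 above, and 8, 8 and 21 below). With sgControl, 3 of 37 were called higher in Phase 1 than in LP cells and 0 lower (median 0.64 against -0.07): *Trim30a*, from 3.85 ± 1.99 to 34.2 ± 4.53 CPM, *Isg20* and *Cmpk2*. By edgeR 6 were called at that step. With sgCbfb 1 was called lower at that step, *Rsad2*, from 18.3 ± 8.20 to 2.84 ± 1.73 CPM (median -0.17 against -0.01), where edgeR called 2. For sgCbfb in LPs of experiment 1 the called genes were *Rsad2*, *Trim30a* and *Rtp4*, all higher (median 0.61 against 0.00). In Phase 1 cells 0 of 37 were called for sgCbfb, with 5 at an unadjusted P value under 0.05 in limma. There 6 genes were above 0 and 31 below (median -0.26 against 0.06). In experiment 2, *Ifih1* was among the genes called higher with sgCTCF (median 0.28 against -0.02), and sgMed12 had *Bst2* and *Rtp4* higher (median 0.28 against -0.02). Against sgCbfb, 26 of 39 were lower with sgCTCF (median -1.94) and 28 of 39 with sgMed12 (median -2.08). These counts include genes such as *Usp18* that passed the filter only through the sgCbfb group. Between sgMed12 and sgCTCF, *Bst2* was higher and *Ifih1* lower with sgMed12 (median -0.05). The part of the interferon-stimulated genes in the *Ifitm* results was not tested.

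**Figure D5:**
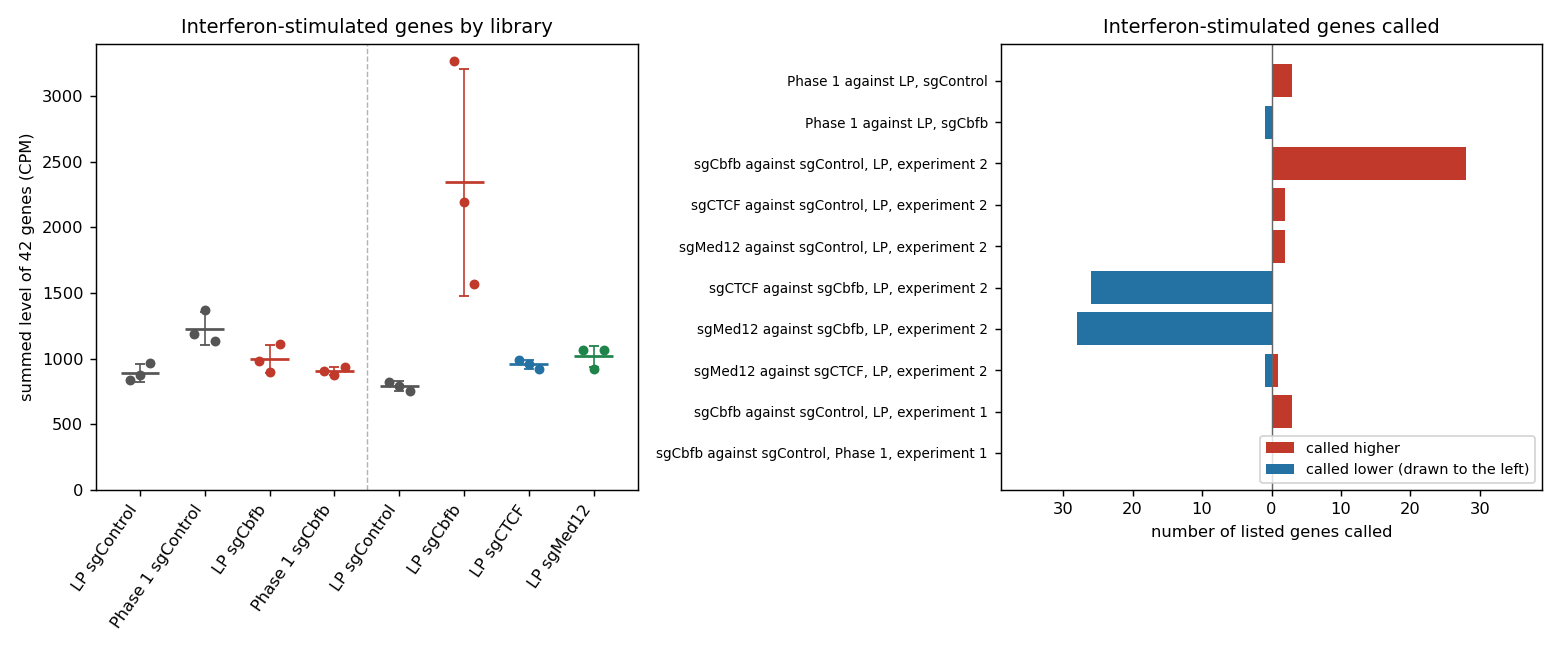
Left, summed level of 42 interferon-stimulated genes in CPM (y axis) in each library of the 8 groups (x axis), with mean and SD of 3 libraries. Right, number of these genes called higher (to the right of 0) or lower (to the left) in each comparison (y axis). The sgCbfb libraries of experiment 2 sum to 1564 to 3270 CPM and each lies above all other libraries.

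Interferons themselves were hardly seen: 0 of 10 ligand genes passed the filter, and their only reads were 1 of *Ifna2* in an sgCbfb library and 0.805 CPM of *Ifng* in an sgCTCF library, both of experiment 2. All 10 receptor and signalling genes were tested. *Ifngr2*, a receptor subunit for interferon gamma, was called higher with sgCTCF (29.7 ± 3.32 against 14.1 ± 3.11 CPM, median of the list 0.26) and with sgCbfb in Phase 1 cells (32.2 ± 10.1 against 11.3 ± 1.23 CPM). *Socs1*, a feedback inhibitor, was called lower with sgMed12 than with sgCTCF (37.4 ± 11.3 against 82.3 ± 18.0 CPM). In the remaining 7 comparisons 0 of 10 were called by limma, with 0 to 5 at an unadjusted P value under 0.05 and 0 by edgeR in the 6 of them it was run on. The medians of the list lay between -0.18 and 0.26, where those of all genes lay between -0.07 and 0.06.

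A further list held genes whose products modify or bind IFITM proteins. Of 6 tested, 1 was called in each of 3 comparisons and 0 in the others by limma (1 to 4 at an unadjusted P value under 0.05, and 0 by edgeR where it was run), with medians between -0.28 and 0.13. *Cd81*, a tetraspanin of the membrane complex in which IFITM3 takes part in B cells, was lower in Phase 1 than in LP cells with sgControl, 26.3 ± 5.46 against 128.8 ± 14.2 CPM (limma adjusted P = 4.2e-09), and higher with sgCbfb than with sgControl in Phase 1 cells (181.4 ± 13.3 CPM). It thus ran opposite to *Ifitm1*, *Ifitm2* and *Ifitm3* in both. *Setd7*, a methyltransferase that can modify IFITM3, was higher with sgCTCF than with sgCbfb (146.3 ± 15.9 against 63.6 ± 6.20 CPM). Of the other genes of the CD225 family, 2 passed the filter and 0 were called in any comparison (limma, with at most 1 at an unadjusted P value under 0.05, and 0 by edgeR in the 8 comparisons it was run on), and the medians of these 2 genes lay between -1.28 and 1.54. *Ifitm5*, a bone gene beside the cluster, had at most 4 reads in a group and *Ifitm7* 0 in all libraries.

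Among the genes that flank the cluster, 8 passed the filter in experiment 1 and 7 in experiment 2. Only *B4galnt4*, a glycosyltransferase gene that begins 50.3 kb from *Ifitm3*, was called in any comparison, and the medians of the list lay between -0.21 and 0.32. It was at 30.1, 34.5 and 24.3 CPM with sgCTCF and at 10.0, 6.79 and 8.52 CPM with sgControl. All sgCTCF libraries lay above all sgControl libraries (log2 fold change 1.70, limma adjusted P = 2.3e-05). It was also called higher with sgCTCF than with sgCbfb (8.36 ± 0.719 CPM) and lower with sgMed12 (8.20 ± 0.954 CPM) than with sgCTCF. *Ifitm3* and *Ifitm6* had their sgCTCF libraries above sgControl and *Ifitm2* below, as given above.

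Markers of other cells were summed because the cultures hold stromal cells and progenitors can take other fates. Of the myeloid genes, 5 of 11 were called higher with sgCbfb in experiment 2 (median log2 fold change 1.15 against -0.01) and 4 and 5 of 10 in LPs and Phase 1 cells of experiment 1 (medians 1.17 against 0.00 and 1.65 against 0.06), with *Mrc1*, *F13a1* and *Ly6c2* among them each time. The 5 defining markers together had 107 reads with sgControl and 219 with sgCbfb in experiment 2, 72 and 86 in LPs of experiment 1 and 127 and 129 in its Phase 1 cells, not scaled for depth. All 15 listed myeloid genes together summed in experiment 2 to 1157, 1194 and 1006 CPM with sgCbfb and to 136.3, 151.8 and 138.3 CPM with sgControl, led with sgCbfb by *Mrc1* at 471.6, *Ly6c2* at 270.4 and *F13a1* at 194.1 CPM, with *Elane* and *Cd14* at 0 among the defining markers. In experiment 1 the 15 genes summed to 786.5, 710.7 and 694.3 CPM in sgCbfb LPs and to 595.2, 564.9 and 580.5 CPM in sgCbfb Phase 1 cells, against 138.1 to 180.0 CPM and 77.6 to 89.7 CPM with sgControl. The sgCbfb libraries of experiment 2 with 123.4, 51.2 and 24.2 CPM of *Ifitm3* were those with myeloid sums of 1157, 1194 and 1006 CPM, in that order. In the Notch comparisons 3 of 10 were called lower with sgControl (*Adgre1*, *F13a1* and *Fcgr3*, median -1.13 against -0.07) and 2 with sgCbfb (median -0.05 against -0.01), sgCTCF had 2 of 11 higher (*Ly6c2* and *Fcgr3*, median -0.32) and sgMed12 0, with 4 at an unadjusted P value under 0.05 in limma and 0 by edgeR (median 0.34). Against sgCbfb, 4 of 11 were lower with sgCTCF (median -1.04) and 4 with sgMed12 (median -0.66), and between these 1 was lower with sgMed12 (median 0.34). The part of these genes in the *Ifitm* results was not tested.

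Stromal genes summed to means of 3.51 to 34.3 CPM, and the highest single library was sgMed12 replicate 1 at 57.9 CPM. Of 6 defining markers *Col3a1* and *Dcn* were at 0 in every group and *Lum* in all but sgMed12, and *Pdgfrb* was the most abundant gene in 5 of the 8 groups. Few stromal genes passed the filter, 2 in experiment 1 and 6 in experiment 2, and only *Pdgfrb* was called, higher with sgMed12 than with sgCbfb (median of the list 1.18) and than with sgCTCF (-0.21). In the other comparisons 0 were called by limma, with 0 to 4 at an unadjusted P value under 0.05 and 0 by edgeR where it was run, and medians between -1.08 and 1.56.

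NK and ILC genes were highest in Phase 1 sgControl cells, at 2986, 2510 and 3268 CPM, most of it *Gzma* (2769 CPM), and summed to 120.6, 92.4 and 75.4 CPM in Phase 1 sgCbfb cells. At the Notch step 2 of 4 were called higher with sgControl (*Gzma* and *Nkg7*, median 2.14) and 1 with sgCbfb (median 0.96), and with sgCbfb 2 were lower in Phase 1 cells (median -2.79) and 0 in LPs of experiment 1 (2 at an unadjusted P value under 0.05 in limma, median -1.30). In experiment 2, of 3 tested, *Nkg7* was lower with sgCbfb (median -1.93), *Klrd1* higher with sgCTCF (1.47) and 0 called with sgMed12 (1 at an unadjusted P value under 0.05, 0 by edgeR, median 0.66). Against sgCbfb 2 were higher with sgCTCF (3.51) and 1 with sgMed12 (2.03), and *Klrd1* was lower with sgMed12 than with sgCTCF (-0.81).

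B-lineage genes summed to means of 2.30 to 23.6 CPM. *Pax5* was called higher with sgCTCF than with sgControl (22.0 ± 2.69 against 8.58 ± 1.77 CPM, median of 3 tested 0.22) and than with sgCbfb (0.39), and lower with sgMed12 than with sgCTCF (0.22). In the other comparisons 0 of 3 were called by limma, with 0 to 2 at an unadjusted P value under 0.05 and 0 by edgeR where it was run, and medians between -0.99 and 0.66. Lymphoid progenitor genes, led by *Ptprc*, summed to means from 890.8 ± 109 to 1434 ± 224 CPM. In Phase 1 against LP cells 2 of 7 were lower (*Flt3* and *Dntt*) and 2 higher (*Kit* and *Ly6d*) with sgControl (median -0.36), and 2 lower and 1 higher with sgCbfb (-0.30). With sgCbfb against sgControl 3 were higher and 1 (*Ly6d*) lower in LPs and in Phase 1 cells of experiment 1 (medians -0.10 and -0.10), and 2 higher and 1 lower in experiment 2 (-0.33). There sgCTCF had 0 called (6 at an unadjusted P value under 0.05 in limma, 0 by edgeR, -0.38) and sgMed12 2 lower (-0.26). Against sgCbfb 2 were higher and 3 lower with sgCTCF (-0.02) and 1 higher and 3 lower with sgMed12 (-0.32), and *Dntt* was lower with sgMed12 than with sgCTCF (-0.56). The part of the stromal, NK, B-lineage and progenitor genes in the *Ifitm* results was not tested.

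The genes most like each main member were sought across the 24 libraries among 8621 genes, on log2(CPM + 1) minus the mean of the LP sgControl libraries of the experiment. These libraries share conditions, so the correlations are descriptions. For *Ifitm3* they were *Igtp* (Pearson's r 0.90, Spearman's rho 0.91), *Epsti1* (0.88, 0.86), *Irgm2* (0.87, 0.86), *Gm6545* (0.87, 0.85) and *Gbp7* (0.86, 0.83). *Igtp*, an interferon-inducible GTPase, was at 65.0, 42.1 and 27.0 CPM in the sgCbfb libraries of experiment 2 and at 7.91, 4.13 and 5.36 CPM with sgControl. For *Ifitm2* they were *Slc35b4* (0.90, 0.90), *Slc25a12* (0.90, 0.82), *Il2ra* (0.90, 0.76), *Bzw2* (0.90, 0.79) and *Cotl1* (0.88, 0.84). For *Ifitm1* they were *Crip1* (0.94, 0.63), *Arhgap5* (0.92, 0.64), *Timp2* (0.92, 0.66), *Tmed3* (0.90, 0.54) and *Tmem121* (0.88, 0.44). *Crip1* was 536.1 ± 114 CPM in Phase 1 sgControl cells and had means of 70.3 to 163.9 CPM in the other groups, and ranking by rho kept 0 of the 5 genes for *Ifitm1*, 1 for *Ifitm2* and 3 for *Ifitm3*. The members were less alike among themselves: r was 0.74 for *Ifitm2* and *Ifitm3* (rho 0.71), 0.63 for *Ifitm1* and *Ifitm2* (0.11) and 0.33 for *Ifitm1* and *Ifitm3* (-0.02).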

How the data were processed

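Trimming was done by the authors with fastp and alignment with STAR on mm10, and they deposited 1 value per gene and library, named TPM. The counter, annotation and use of strand are not given in the sources used here, and the labels and the paper name different NextSeq models. The deposited values are CPM: whole reads were recovered for 100.0% of them (within 0.1 read) from the step of 1 read. A last line without a gene identifier, worth 1 read, and 1 column with the authors' mean were not used.

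Genes with at least 1 CPM in 3 libraries of an experiment were fitted with limma 3.58.1 (R 4.3.3) on log2(CPM + 1), the 4 groups of an experiment together, with trended moderation and Benjamini-Hochberg adjustment over all genes. Intervals are 95%. The code was tested on simulated data. Members, lists and tests were chosen with earlier results of these data known. Named genes are the members, the guides' targets, the 5 genes most like each main member and, from each list, up to 4 called genes with the largest change, of which 1 is not reported here. *B4galnt4* and *Igtp* are among these, and their values by library were chosen for print after they were seen. The lists are other CD225 genes, IFITM partners, cluster neighbours, interferon-stimulated, ligand and receptor genes, Notch and T-lineage genes, and stromal, myeloid, NK and ILC, B-lineage and lymphoid progenitor markers. Alternatives were pseudocounts of 0.1 and 5, no filter, scaling by medians of ratios, a fit of only the groups compared, a replicate block, edgeR 4.0.16 on the recovered reads, no fold threshold, each library left out and, for likeness, Spearman's rho. Positions and exons come from GENCODE on mm10, and promoters from RefSeq. Tables and plots were made with Python 3.11.15, pandas 2.3.3, numpy 2.4.6, scipy 1.17.1 and matplotlib 3.10.9.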

Additional observations from a re-analysis of the deposited data

Results flagged for a closer look

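For 2 members the sgCbfb effect pointed in opposite directions at the stages of experiment 1. The log2 fold change of sgCbfb against sgControl was lower in Phase 1 than in LP cells by -3.60 for *Ifitm3* and by -2.08 for *Ifitm2*. In both genes each sgCbfb library of LPs was above, and each of Phase 1 below, all sgControl libraries of that stage. The difference was not tested, because these contrasts led to the choice of the family. The *Cbfb* mRNA itself was 40.2 against 86.5 CPM in LPs and 53.9 against 66.5 CPM in Phase 1 cells, and its part in this was not tested.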

How the results depend on the processing

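Of 749 values recomputed under alternatives, none reversed a member's direction past the threshold. Among the members' fold changes 7 passed the threshold under an alternative, 3 no longer did and 7 untested ones moved by more than that spread. The called rises of *Ifitm1* and *Ifitm2* with Notch stimulation and the lower *Ifitm2* with sgCTCF than with sgCbfb were called under 14 of 14 alternatives each. Among these, dropping the fold threshold could not undo a call. For the rises with Notch stimulation the limit from the choice of the family, given above, also holds.

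Without a fold threshold, 2 members were called for sgCbfb against sgControl in experiment 2 (0 otherwise), 2 for sgCTCF against sgCbfb (1), 2 for sgMed12 against sgCbfb (0) and 2 for sgMed12 against sgCTCF (1). With only the groups compared in the fit, 1 was called for sgCTCF (0). For sgMed12 against sgCTCF 0 were called without the filter, and 0 to 1 with single libraries left out. The cause was not tested.

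Over all genes, dropping the fold threshold gave 726 calls at the Notch step with sgControl (449 with it), 267 with sgCbfb (158), and in experiment 2 1272 for sgCbfb (570), 1084 for sgCTCF (320), 822 for sgMed12 (136), 2260 for sgCTCF against sgCbfb (905), 1794 for sgMed12 against sgCbfb (590) and 2105 for sgMed12 against sgCTCF (529). With only the groups compared in the fit, 245 were called at the Notch step with sgCbfb and 57 for sgMed12. The sgMed12 count was 54 without the filter and 54 to 358 with single libraries left out (66 without sgControl replicate 2, and 61, 358 and 54 without sgMed12 replicates 1, 2 and 3). The cause was not tested. In the same order edgeR called 488, 193, 572, 328, 161, 905, 602 and 537 genes.

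The replicate numbers were not taken as pairing the libraries, since not every same-numbered pair correlated above 0.1. As deviations from group means, same-numbered libraries correlated at -0.011 to 0.102 in experiment 1 (median 0.003, 18 pairs) and -0.064 to 0.111 in experiment 2 (median 0.041, 18 pairs), and others at -0.095 to 0.050 (median -0.006, 36 pairs) and -0.108 to 0.086 (median -0.017, 36 pairs). Every library correlated best with its own number in 0 of 6 pairs of groups in experiment 1 and in 2 of 6 in experiment 2, sgControl with sgCbfb and with sgCTCF, which is a hint from the data and not from the design. With the number as a block 472, 165, 567, 324, 148, 905, 592 and 530 genes were called in that order, and no call of a member changed. Depth limits *Ifitm6*, *Ifitm10* and, in sgControl LPs, *Ifitm3*.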
